A study of Mus musculus with 12 samples.

Results

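A set of 10 genes of the integrated stress response, namely the transcription factor Atf4 and 9 genes regulated with it or by it (Atf5, Ddit3, Trib3, Chac1, Asns, Psat1, Phgdh, Slc7a11 and Ddit4), were followed over mouse embryonic fibroblasts lacking or carrying Itpr2. The rule names them as genes of the pathway and uses no measured value, but it was written with earlier results of these data known, so their counts are a description. They are 10 of the 19507 genes or unnamed transcripts that could be tested. At late passage 5 of the 10 were higher in knock-out (KO) than in wild-type (WT) cells: Trib3 by 3.09-fold, Slc7a11 by 2.61-fold, Chac1 by 1.66-fold, Atf5 by 1.38-fold and Atf4 by 1.32-fold. In all, 3.46% of the genes tested were called higher in that comparison. The calls of Chac1, Atf5 and Atf4 were lost when any single late-passage KO sample was left out. The probe of Slc7a11 was dim, and the size of its difference depended on the background correction. In WT cells 5 of the 10 fell between early and late passage (Trib3, Ddit4, Psat1, Atf5 and Asns), where 4.37% of all genes fell. At early passage 0 of the 10 were called different between the genotypes, where 0.0359% of all genes were.

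The fibroblasts (MEFs) were primary cultures from E12.5 embryos, from 3 independent WT or Itpr2 KO animals per the design text. The product of Itpr2 is inositol trisphosphate receptor type 2, through which calcium leaves the endoplasmic reticulum. Cells were grown for 3 passages (early) or 5 passages (late), giving 4 groups with 3 replicates each: WT early, KO early, WT late and KO late. All groups were kept in the same medium, which held serum, antibiotics and added non-essential amino acids, and the labels name no applied agent. They do not describe the KO allele further. RNA was read on 12 Agilent arrays of 1 colour, where the brightness of a probe stands for the level of its transcript.

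The integrated stress response is a shared pathway of several kinases that phosphorylate the translation factor eIF2alpha when amino acids run short, unfolded proteins collect in the endoplasmic reticulum, heme is scarce or viral RNA is present. General protein synthesis then slows, while the messenger RNAs of ATF4, ATF5 and CHOP (the product of Ddit3) are translated better because of short open reading frames upstream of their coding sequence. ATF4 pairs with other bZIP proteins on C/EBP-ATF response elements and raises genes for amino acid uptake, amino acid synthesis, tRNA charging and glutathione metabolism, and under long stress also genes tied to cell death. Because much of the control of ATF4 lies in translation, its transcript level and its protein level need not follow each other.

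Promoter sequence was available from RefSeq for all 10 members, as 12 promoters on assembly GRCm38.p6. The core of the C/EBP-ATF response element, TGATGNAAN on either strand, was found within 250 bases before the start site in 3 of the 12, those of Chac1, Slc7a11 and Asns, against 3.44% of all 32851 promoters in the table. They are shown because this element is the one through which ATF4 acts. Letters run 5′ to 3′ on the strand of the gene, and capitals mark each match to the core. The windows lie at chr2:119351018-119351086 (plus strand) for Chac1, chr3:50443623-50443709 (minus strand) for Slc7a11 and chr6:7693210-7693262 (minus strand) for Asns.
Chac1: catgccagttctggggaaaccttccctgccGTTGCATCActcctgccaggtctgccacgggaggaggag
Slc7a11: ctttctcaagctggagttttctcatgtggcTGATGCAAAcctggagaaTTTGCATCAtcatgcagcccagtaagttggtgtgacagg
Asns: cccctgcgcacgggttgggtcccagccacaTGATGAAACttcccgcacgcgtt
The Slc7a11 window holds the core once on each strand, at positions -66 to -58 and -48 to -40 from the start site. In Chac1 the core lies on the opposite strand at -194 to -186, and in Asns on the strand of the gene at -23 to -15. The stricter form TGATGCAAT, which is a special case of the core, was found in 0 of the 12 and in 0.167% of all promoters. The other special case, TGATGAAAN, was found in Asns alone and in 0.877% of all promoters. The cyclic AMP response element TGACGTCA was found in 0 of the 12 and in 1.55% of all. A match is a run of letters and not a shown binding site, and for the other 7 members the windows do not hold these letters.

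Between 59.1% and 67.5% of the 39429 probes on an array passed the scanner software's call of well above background, and replicates of a group correlated at 0.985 to 0.997. The single kept probe of Itpr2 was not lower in the KO groups (0.66 to 1.23 in WT early, 1.12 to 1.58 in KO early, 1.53 to 1.74 in WT late and 1.72 to 1.83 in KO late, in log2 units), so it does not check the genotype labels. Xist, a transcript of female cells, was above background on WT early replicate 1, WT late replicate 1 and KO late replicates 1 and 2 and on 0 of the KO early arrays. KO late replicates 1 and 2 therefore carried a sex signal that KO early replicates 1 and 2 did not, and results are given with and without these 2 arrays. Each of the 3 slides held 1 replicate of every group, always in the same position, so position on the slide and group cannot be told apart. Markers of fibroblasts were well above background for 13 to 14 of 14 genes on every array. Of 14 macrophage markers all were detected on every array, and their summed log2 level was 6.46 to 7.17 in WT late and 5.45 to 6.36 in KO late, with 2 called lower and 0 higher between these groups. Of 11 cartilage markers tested, 6 were called higher in KO late than in WT late. Summed over all 12 on the array, cartilage markers were at 5.23 to 5.67 in KO late against 4.91 to 5.15 in WT late. Summed neural markers were at 3.24 to 3.57 in KO late and 3.94 to 4.09 in WT late, and skeletal muscle markers at 2.92 to 3.17 and 3.34 to 3.96. Of 6 neural markers tested 1 was called higher and 2 lower in KO late. Of 4 skeletal muscle markers tested 0 were called higher and 1 lower. The part of these other cell types in the results below was not tested, and in bulk RNA fewer cells of a type and less RNA per cell cannot be told apart.

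All 10 members had a probe well above background on all 12 arrays, so each passed the filter on dim probes in every group. The values below are log2 signals relative to the 75th percentile of the array, in the order replicate 1, 2 and 3, and a probe's level is set only against its own level in other groups.

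Among the transcription factors, Atf4 stood at 6.44, 6.36 and 6.27 in WT early, 6.40, 6.41 and 6.51 in KO early, 6.40, 6.24 and 6.14 in WT late and 6.65, 6.66 and 6.67 in KO late. The 3 KO late arrays were above all 9 others, with an SD of 0.0126 (n = 3). Atf5 is a relative of Atf4, likewise controlled by short upstream reading frames and known for its part in the mitochondrial stress response. It stood at 6.47, 6.60 and 6.71 in WT early, 6.51, 6.52 and 6.72 in KO early, 5.91, 6.02 and 6.08 in WT late and 6.48, 6.52 and 6.41 in KO late. Here the WT late arrays were the low ones, below all arrays of the other 3 groups. Ddit3 encodes CHOP, the bZIP protein that partners ATF4 under prolonged stress. It stood at 1.07, 1.49 and 1.61 in WT early, 1.10, 1.29 and 1.55 in KO early, 0.68, 0.69 and 1.15 in WT late and 1.45, 1.56 and 1.28 in KO late. WT late replicates 1 and 2 were the lowest arrays, while WT late replicate 3 overlapped both early groups.

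Next come a feedback gene and an enzyme that acts on glutathione. Trib3, a pseudokinase that is induced by ATF4 and CHOP and restrains ATF4, stood at 3.75, 3.91 and 3.84 in WT early, 3.59, 3.94 and 4.16 in KO early, 2.67, 2.58 and 2.67 in WT late and 4.31, 4.44 and 4.05 in KO late. The WT late arrays were below every other array, the nearest of which stood at 3.59, and the KO late arrays overlapped the highest KO early array. Chac1, which cleaves glutathione, stood at 2.70, 2.56 and 3.34 in WT early, 2.44, 2.52 and 2.86 in KO early, 2.59, 2.44 and 2.71 in WT late and 3.34, 3.35 and 3.24 in KO late. Its KO late arrays were high, and WT early replicate 3, at 3.34, lay among them.

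The 3 enzymes of amino acid synthesis differed in pattern. Asns, asparagine synthetase, stood at 4.73, 4.79 and 4.72 in WT early, 4.77, 4.78 and 4.78 in KO early, 4.45, 4.39 and 4.30 in WT late and 4.60, 4.70 and 4.57 in KO late. The early groups overlapped, and KO late lay between them and WT late without overlap. Psat1, the aminotransferase of the serine pathway, stood at 3.73, 3.97 and 4.14 in WT early, 4.10, 3.88 and 3.87 in KO early, 3.34, 3.22 and 3.24 in WT late and 3.56, 3.50 and 3.50 in KO late, again with KO late between. Phgdh, which catalyses the first step of that pathway, stood at 3.60, 3.83 and 4.11 in WT early, 3.81, 3.79 and 3.62 in KO early, 3.87, 3.82 and 3.58 in WT late and 3.61, 3.82 and 3.57 in KO late. All 4 groups of Phgdh overlapped.

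Slc7a11 encodes the subunit of system xc- that imports cystine, the precursor of glutathione. It stood at -5.31, -5.10 and -5.18 in WT early, -4.97, -4.81 and -4.37 in KO early, -5.87, -5.95 and -5.44 in WT late and -4.32, -4.40 and -4.40 in KO late. Its probe was dim, with intensities of 11.7 to 37.7 before scaling, which put it 0.15 to 2.37 log2 units above the lowest signal called above background on the same array. The order of the groups was WT late lowest, then WT early, then KO early and KO late, with overlap only between KO early replicate 3 and KO late. Ddit4 (REDD1), an inhibitor of mTORC1 that also answers to hypoxia and glucocorticoids, stood at 3.66, 4.23 and 4.13 in WT early, 3.57, 4.04 and 4.29 in KO early, 3.19, 3.08 and 3.23 in WT late and 3.01, 3.09 and 2.95 in KO late. It was low on all 6 late arrays and high on all 6 early ones, in both genotypes.

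**Figure D1:**
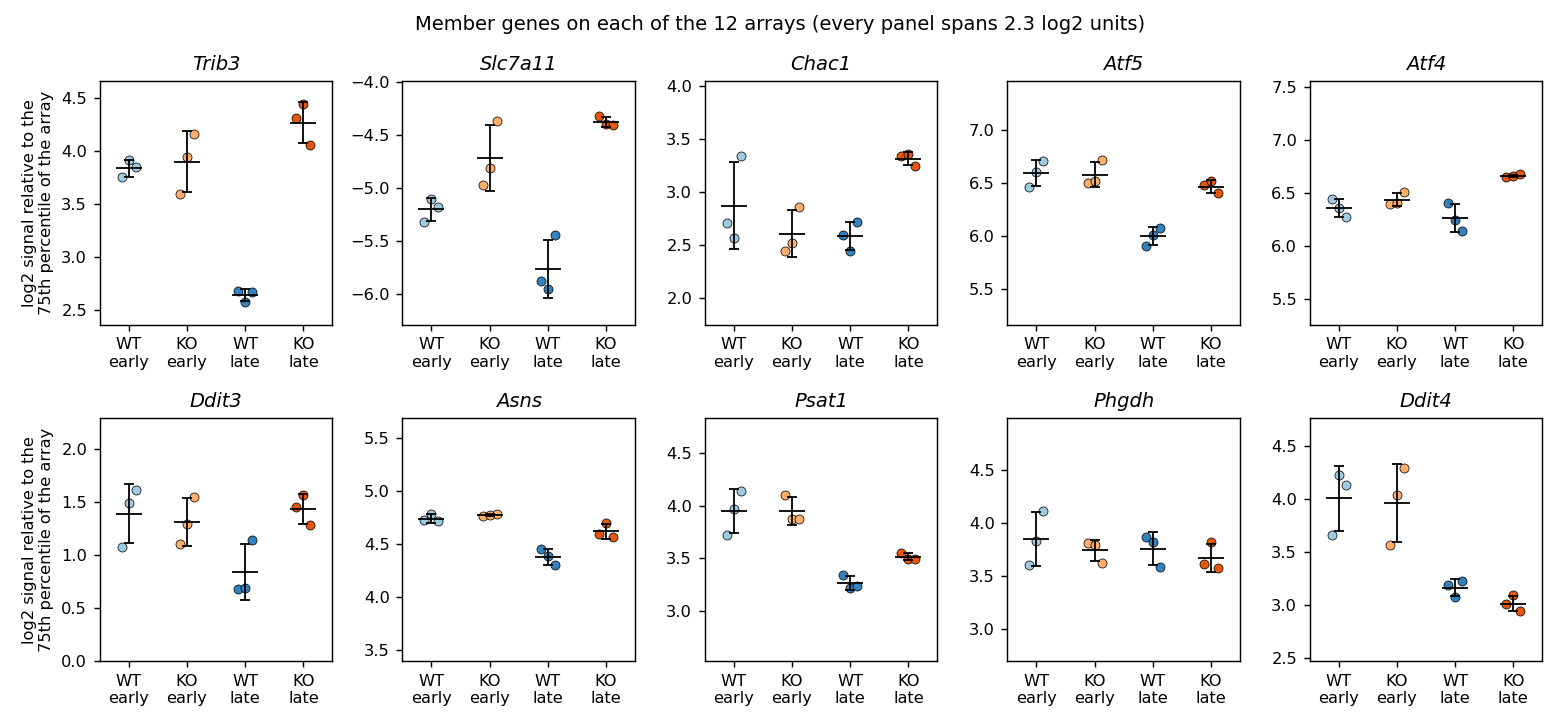
Log2 signal of the 10 genes relative to the 75th percentile of each array (vertical axis, every panel spanning the same number of log2 units) in the 4 groups; points are arrays and bars the mean and SD of 3 arrays. Trib3 is lowest on the WT late arrays, at 2.58 to 2.67 against 4.05 to 4.44 on the KO late arrays, while Phgdh overlaps in all groups.

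The comparison of genotypes at late passage asked which transcripts differ once the cells have aged in culture. Of the 10 members, 5 were higher in KO late and 0 were lower. Trib3 was 1.63 ± 0.144 (SE) log2 units higher with an adjusted p of 0.000806 (limma, 3 arrays a group, Benjamini-Hochberg over all genes tested), Slc7a11 was 1.39 ± 0.168 higher (adjusted p = 0.00284) and Chac1 was 0.73 ± 0.189 higher (adjusted p = 0.0441). The transcription factors differed by smaller amounts: Atf5 was 0.47 ± 0.0951 higher (adjusted p = 0.0196) and Atf4 was 0.40 ± 0.087 higher (adjusted p = 0.0243). Ddit3 (0.59 ± 0.181, adjusted p = 0.0716), Asns (0.24 ± 0.074, adjusted p = 0.0722) and Psat1 (0.25 ± 0.112, adjusted p = 0.193) had positive differences that did not pass. Phgdh (-0.09 ± 0.138, adjusted p = 0.746) and Ddit4 (-0.15 ± 0.187, adjusted p = 0.675) had negative ones that did not pass either.

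For 8 of the 10, all but Phgdh and Ddit4, every KO late array was above every WT late array, which holds for 19% of all genes tested. It follows from this lack of overlap that the same 8 differences were positive on each of the 3 slides. The median over the 10 was 0.43 against -0.01 over all genes, and the median on slides 1, 2 and 3 was 0.41, 0.46 and 0.30. Trib3 differed by 1.63, 1.86 and 1.39 on the 3 slides, and Slc7a11 by 1.55, 1.56 and 1.04. On slide 1 both late arrays carried the Xist signal (KO late replicate 1 together with that of the Y-linked Ddx3y) and on slide 3 neither did, while WT late replicate 1 lacked the Ddx3y signal. The 2 late arrays of slide 2 were opposite. There KO late replicate 2 carried the Xist signal without that of Ddx3y, and WT late replicate 2 carried that of Ddx3y without Xist. The part of sex in these differences was not tested. Ddit3 was uneven, with 0.77 and 0.88 on slides 1 and 2 and 0.13 on slide 3.

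Several of these calls were lost when arrays were left out. Without KO late replicates 1 and 2 the lone KO late array left Trib3 at 1.41 ± 0.205 (adjusted p = 0.0742), Slc7a11 at 1.36 ± 0.267 (adjusted p = 0.145), Chac1 at 0.66 ± 0.299 (adjusted p = 0.482), Atf4 at 0.41 ± 0.147 (adjusted p = 0.331) and Atf5 at 0.40 ± 0.156 (adjusted p = 0.383), with 0 of the 10 called in a fit where that array is assumed to vary like the other groups. In that fit only 1 of the 19507 genes was called, against 1528 with all arrays. Trib3 and Slc7a11 kept their call when any single array was left out. Leaving out KO late replicate 1, 2 or 3 took the calls over all genes to 255, 386 and 507. Without KO late replicate 1, 2 or 3 in turn, Atf4 was at an adjusted p of 0.0947, 0.0787 and 0.0836, Atf5 at 0.085, 0.0755 and 0.0524 and Chac1 at 0.14, 0.125 and 0.101. Atf4 also lost its call without WT late replicate 2 (0.0599) or 3 (0.0753), Atf5 without WT late replicate 1 (0.0532), and Chac1 without WT late replicate 1 (0.0865), 2 (0.111) or 3 (0.082) or KO early replicate 2 (0.0705). The size of the Slc7a11 difference depended on the background correction of its dim probe and was 0.58 instead of 1.39 with normexp, where it still passed. Under quantile normalization Atf4 was 0.35 higher and no longer passed (adjusted p = 0.0628), and with normexp Chac1 did not pass (0.66, adjusted p = 0.062). Over all genes 675 were called higher and 853 lower, and the split turned to 1002 and 788 with quantile normalization and to 951 and 735 with normexp.

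**Figure D2:**
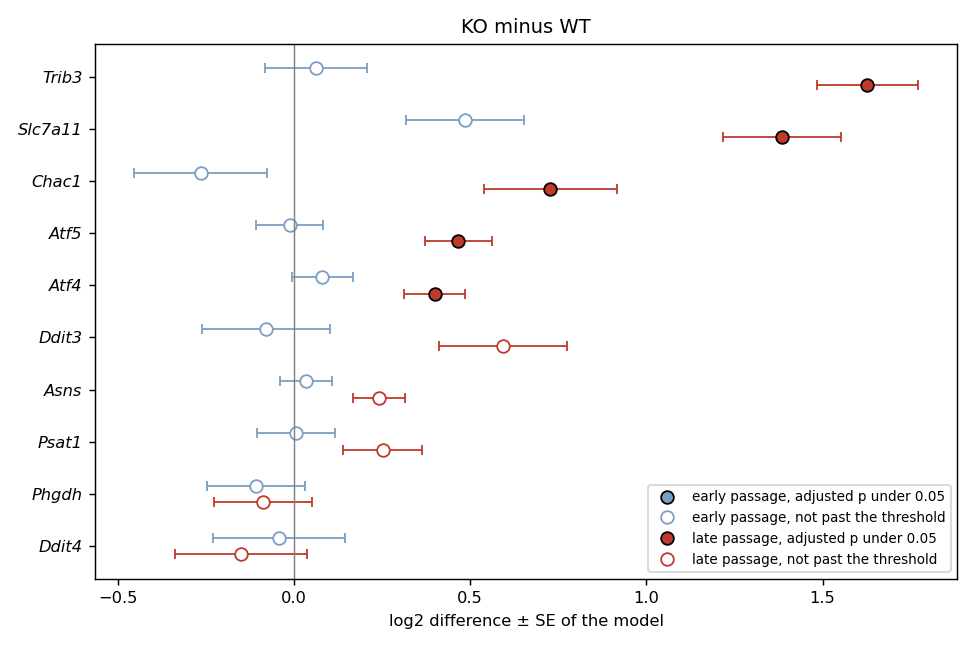
KO minus WT log2 difference of each gene (horizontal axis, bars the SE of the model) at early passage in blue and late passage in red; filled points passed an adjusted p under 0.05. The 5 filled points are late differences, from 0.40 for Atf4 to 1.63 for Trib3, and the early differences lie between -0.26 and 0.48.

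Passage in WT cells was the other comparison with several calls. All 10 differences were negative (Atf4 only under the scaling used, since quantile normalization put it at 0.06), and 5 passed. Trib3 fell by 1.20 ± 0.144 log2 units (adjusted p = 0.00192), a fold of 2.29. Ddit4 fell by 0.84 ± 0.187 (adjusted p = 0.0213), Psat1 by 0.68 ± 0.112 (adjusted p = 0.00691), Atf5 by 0.59 ± 0.0951 (adjusted p = 0.00646) and Asns by 0.36 ± 0.074 (adjusted p = 0.0155). Slc7a11 (-0.56 ± 0.168, adjusted p = 0.0612) and Ddit3 (-0.55 ± 0.181, adjusted p = 0.0788) did not pass. Chac1 (-0.29 ± 0.189, adjusted p = 0.344), Atf4 (-0.10 ± 0.087, adjusted p = 0.501) and Phgdh (-0.09 ± 0.138, adjusted p = 0.706) did not pass either.

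For 6 members (Trib3, Ddit4, Psat1, Atf5, Asns and Slc7a11) every WT late array was below every WT early array, which holds for 13.8% of all genes. The median over the 10 was -0.56 against -0.0043 over all genes, and -0.39, -0.67 and -0.58 on slides 1, 2 and 3. Markers of cell types moved with WT passage too. Of 14 fibroblast markers 13 had negative differences (median -0.47, 3 called lower and 0 higher), with a summed level of 9.61 to 9.88 in WT early and 9.33 to 9.51 in WT late. Of 14 macrophage markers 12 had positive ones (median 0.86, 1 called higher), with summed levels of 5.89 to 6.85 and 6.46 to 7.17. Of 4 skeletal muscle markers tested 3 were called lower. Skeletal muscle levels summed over all 9 markers on the array overlapped (3.16 to 3.92 in WT early and 3.34 to 3.96 in WT late). Of 11 cartilage markers tested 3 were called lower. Summed over all 12 on the array, cartilage markers were at 4.77 to 6.43 and 4.91 to 5.15. Neural markers summed over all 8 on the array were at 3.43 to 3.59 in WT early and 3.94 to 4.09 in WT late. Of the 6 tested only 2 had positive differences (median -0.22, 2 called higher and 0 lower). The part of these cell types in the fall of the members was not tested. WT arrays with the same replicate number share a slide, and whether they also share a culture cannot be told apart from that. With the number as a block Slc7a11 passed (adjusted p = 0.0449) and the other 5 calls stood. Slc7a11 also passed without WT late replicate 3 (-0.72, adjusted p = 0.0286), KO early replicate 1 (adjusted p = 0.0482) or KO early replicate 3 (adjusted p = 0.0318). Ddit3 passed without WT early replicate 1 (-0.71, adjusted p = 0.0322) or WT late replicate 3 (-0.71, adjusted p = 0.0451). Ddit4 lost its call without WT early replicate 2 (adjusted p = 0.066) or 3 (0.0601) or WT late replicate 1 (0.0543) or 2 (0.0632). With the 6 WT arrays fitted alone only Trib3 passed, and Atf5, Psat1, Ddit4 and Asns were at adjusted p of 0.0598, 0.0624, 0.0631 and 0.136. That fit called 560 of all genes, against 2065 with all 12 arrays. Under quantile normalization Asns did not pass (-0.28, adjusted p = 0.0556). Without KO late replicates 1 and 2, Asns (adjusted p = 0.0558) and Ddit4 (adjusted p = 0.0609) did not pass. The comparison shares the WT late arrays with that of the genotypes at late passage, so the low WT late values of Trib3 and Atf5 enter both. Over all genes the split of higher and lower calls was 1213 and 852, and 836 and 1131 with normexp.

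In KO cells the members did not move in 1 direction with passage. Chac1 rose by 0.70 ± 0.189 (adjusted p = 0.0273), where 9.95% of all genes rose. Ddit4 fell by 0.95 ± 0.187 (adjusted p = 0.00796) and Psat1 by 0.43 ± 0.112 (adjusted p = 0.0232), where 9% of all genes fell. Trib3 (0.37 ± 0.144, adjusted p = 0.102), Slc7a11 (0.34 ± 0.168, adjusted p = 0.179), Atf4 (0.22 ± 0.087, adjusted p = 0.101) and Ddit3 (0.12 ± 0.181, adjusted p = 0.681) had positive differences that did not pass. Those of Atf5 (-0.11 ± 0.0951, adjusted p = 0.433), Asns (-0.15 ± 0.074, adjusted p = 0.172) and Phgdh (-0.07 ± 0.138, adjusted p = 0.757) were negative and did not pass, and quantile normalization turned Atf5 to 0.06 and Phgdh to 0.04. The median over the 10 was 0.02 against -0.05 over all genes. Atf4 passed with quantile normalization (0.39, adjusted p = 0.0276), with the mean of its probes (0.39, adjusted p = 0.0193) and with the KO arrays fitted alone (0.22, adjusted p = 0.0399), while Psat1 did not with quantile normalization (adjusted p = 0.0585) or the mean of its probes (adjusted p = 0.059).

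The calls of Chac1 and Psat1 across KO passages were lost without single KO arrays. Without KO early replicate 1 or 2 Chac1 was at an adjusted p of 0.103 and 0.0904, and without KO late replicate 1, 2 or 3 at 0.0871, 0.0847 and 0.0609. Psat1 was at 0.0881 and 0.0516 without KO early replicate 1 or 2, and at 0.0667, 0.0762 and 0.0712 without each KO late array. Without KO early replicate 3 Trib3 (0.50, adjusted p = 0.0342) and Slc7a11 (0.52, adjusted p = 0.0397) were called as well. Ddit4 kept its call without any single array, and without KO late replicates 1 and 2 together it was at -1.02 ± 0.296 (adjusted p = 0.135), with 0 of the 10 and 165 of all genes called, against 3696 with all arrays.

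**Figure D3:**
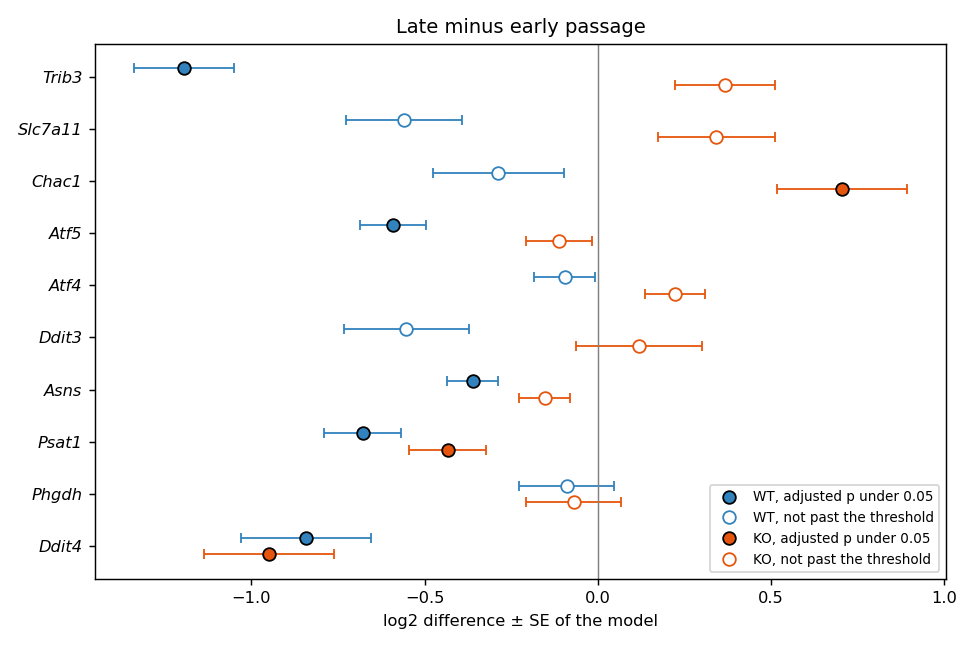
Late minus early log2 difference of each gene (horizontal axis, bars the SE of the model) in WT (blue) and KO (orange); filled points passed an adjusted p under 0.05. WT points lie at or below -0.09 for all 10 genes (Atf4 turns positive under quantile normalization), while KO points run from -0.95 for Ddit4 to 0.70 for Chac1.

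Whether passage acted differently in the genotypes was tested directly, as the passage difference in KO minus that in WT. Only Trib3 passed, at 1.56 ± 0.204 (adjusted p = 0.0212), where 0.0205% of all genes were called higher. On slides 1, 2 and 3 it was 1.79, 1.83 and 1.07, and without KO late replicates 1 and 2 together it was 1.35. With the replicate number as a block its adjusted p was 0.0786. Left out one at a time, WT early replicates 2 and 3, KO early replicate 2, WT late replicate 3 and KO late replicates 1 and 2 moved the adjusted p to 0.0733, 0.068, 0.0778, 0.0566, 0.0995 and 0.0859. Chac1 (0.99 ± 0.267, adjusted p = 0.182), Slc7a11 (0.90 ± 0.237, adjusted p = 0.174), Ddit3 (0.67 ± 0.256, adjusted p = 0.296), Atf5 (0.48 ± 0.134, adjusted p = 0.195) and Atf4 (0.32 ± 0.123, adjusted p = 0.304) were positive on each of the 3 slides and did not pass. Without KO early replicate 3 Slc7a11 passed (1.08, adjusted p = 0.045). Asns (0.21 ± 0.105), Psat1 (0.25 ± 0.158), Phgdh (0.02 ± 0.196) and Ddit4 (-0.11 ± 0.265) had adjusted p of 0.402 to 0.977. Over all genes only 4 were called higher and 13 lower, and the split was 8 and 5 with quantile normalization and 29 and 17 with normexp.

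At early passage 0 of the 10 members were called between KO and WT by limma, where 0.0359% of all genes were. Before adjustment 1 member had a p under 0.05, Slc7a11, which was 0.48 ± 0.168 higher in KO early with no overlap between arrays (unadjusted p = 0.0158, adjusted p = 0.741). Chac1 was at -0.26 ± 0.189 (adjusted p = 0.75), and the other 8 differences lay between -0.11 for Phgdh and 0.08 for Atf4. The median over the 10 was -0.0031. In none of the alternative fits was a member called at early passage.

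Second probes were present for 3 members, and their p-values were adjusted over all kept probes. The second probe of Atf4 stood at 0.96, 0.73 and 0.60 in WT late and at 1.13, 1.22 and 0.98 in KO late, a difference of 0.35 ± 0.124 that did not pass (adjusted p = 0.112). Across KO passages the same probe rose by 0.56 ± 0.124 (adjusted p = 0.0128), where the probe that stands for Atf4 gave 0.22. The second probe of Psat1 fell by 0.64 ± 0.151 (adjusted p = 0.0284) with passage in WT and was at -0.33 ± 0.151 (adjusted p = 0.164) in KO. That of Phgdh was called in 0 of the 5 comparisons.

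The rest of the pathway was read from lists of other genes. Upstream, 0 of 19 eIF2alpha kinases and regulators were called between genotypes at late passage and 0 with passage in WT, with medians of 0.01 and -0.04, and normexp called 1 in each. The kinase gene Eif2ak4 (GCN2) was on the array but was not among the genes tested, so these counts do not cover it. Over all genes 3.46% were called higher and 4.37% lower at late passage, and 6.22% and 4.37% in WT passage. Eif2b2, a subunit of the exchange factor eIF2B, was at -0.41 ± 0.115 (adjusted p = 0.0577) at late passage, and Ppp1r15a, which encodes the phosphatase subunit GADD34 that reverses eIF2alpha phosphorylation, at 0.55 ± 0.168 (adjusted p = 0.0658) in WT passage. Across KO passages Ppp1r15a rose by 1.05 ± 0.168 (adjusted p = 0.00339), and Eif2b2 fell by 0.45 ± 0.115 (adjusted p = 0.0233). In that comparison 9.95% of all genes were called higher and 9% lower.

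Among bZIP partners and other stress transcription factors, 1 of 14 was higher and 2 were lower in KO late than in WT late, with a median of 0.07. Of all genes tested, 3.46% were called higher and 4.37% lower there. Cebpb, a dimer partner of ATF4, was 0.70 ± 0.158 higher (adjusted p = 0.0279), while Cebpa was 0.92 log2 units lower (-0.92 ± 0.219, adjusted p = 0.0325) and Atf6, the sensor of another arm of the unfolded protein response, was lower as well (-0.45 ± 0.114, adjusted p = 0.0394). In WT passage 2 of 14 fell, Jdp2 by 0.92 and Atf6b by 0.47, and 1 rose, Cebpd by 0.89. Of all genes 4.37% were called lower and 6.22% higher there. In KO passage 1 of 14 rose, Cebpd by 1.37, and 1 fell, Batf3 by 0.65. These 2 counts are not above the shares of all genes in KO passage, 9.95% higher and 9% lower.

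Of the amino acid transporters, 4 of 14 were higher and 1 was lower in KO late than in WT late, with a median of 0.31. All genes were called higher in 3.46% and lower in 4.37% there. Slc7a3, a carrier of cationic amino acids, was 1.36 ± 0.244 higher (adjusted p = 0.0127), Slc43a1 (LAT3) 1.14 ± 0.197 higher (adjusted p = 0.0111), Slc7a5 (LAT1, a carrier of large neutral amino acids) 0.82 ± 0.19 higher (adjusted p = 0.0302) and the glycine transporter Slc6a9 0.78 ± 0.14 higher (adjusted p = 0.0128). The taurine transporter Slc6a6 was lower (-1.11 ± 0.2, adjusted p = 0.0128). In WT passage 4.37% of all genes were called lower and 6.22% higher. With passage in WT 4 of 14 fell and 0 rose, with a median of -0.30: Slc7a3 fell by 2.17 ± 0.244 (adjusted p = 0.00145), Slc7a5 by 1.07 ± 0.19, Slc6a9 by 0.55 ± 0.14 and Slc38a1 by 0.39 ± 0.0891. In KO passage 2 of 14 rose, Slc43a1 by 1.49 and Slc38a2 (SNAT2) by 0.66, and 2 fell, Slc6a6 by 0.93 and Slc38a1 by 0.49. Of all genes 9.95% were called higher and 9% lower in KO passage.

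The list for serine, one-carbon and proline synthesis also held enzymes outside these pathways, among them Cth, Gpt2, Got1 and Pck2. In it 6 of 14 genes fell with passage in WT and 0 rose, with a median of -0.38. Over all genes 4.37% were lower and 6.22% higher. Aldh1l2, a mitochondrial folate enzyme, fell by 1.15 ± 0.162 (adjusted p = 0.00361), Cth, which makes cysteine from cystathionine, by 1.01 ± 0.225 (adjusted p = 0.0212), and Pck2, Gpt2, Mthfd2 and Mthfd1l by 0.53, 0.50, 0.45 and 0.30. Between the genotypes at late passage 2 of 14 were higher, Aldh1l2 by 1.14 ± 0.162 (adjusted p = 0.00499) and Gpt2 by 0.59 ± 0.118 (adjusted p = 0.0188), and Psph, the last enzyme of serine synthesis, was lower (-0.43 ± 0.0995, adjusted p = 0.0309). Of all genes tested, 3.46% were called higher and 4.37% lower there. In KO passage 3 of 14 fell, Cth by 0.79, Psph by 0.69 and Got1 by 0.34, where 9% of all genes fell. Of 19 cytosolic aminoacyl-tRNA synthetases only 1, Eprs, was called higher in KO late than in WT late (0.50 ± 0.0775, adjusted p = 0.00762), and 0 were called lower. With WT passage 3 of 19 fell, Aars, Sars and Eprs by 0.58, 0.51 and 0.44. With KO passage 2 of 19 fell, Wars and Hars each by 0.54, which is near the 9% of all genes called lower there.

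Other effectors that respond to ATF4 went both ways. Of all genes tested, 3.46% were called higher and 4.37% lower in KO late than in WT late. In WT passage 6.22% and 4.37% were, and in KO passage 9.95% and 9%. In KO late 5 of 19 were higher than in WT late and 1 was lower, with a median of -0.02. Fgf21, a secreted hormone, was 2.35 ± 0.429 higher (adjusted p = 0.0136), followed by Ndrg1 (0.91), Vldlr (0.56), Nfil3 (0.50) and Herpud1 (0.43). Gdf15, a stress-induced cytokine that also responds to p53, was lower (-0.92 ± 0.243, adjusted p = 0.0477). With WT passage Vldlr fell by 0.80, the p53 target Bbc3 (PUMA) by 0.74 and the death receptor gene Tnfrsf10b by 0.36, and 0 of 19 rose. With KO passage 5 rose and 2 fell: Fgf21 rose by 1.95, Vegfa by 0.90, Ndrg1 by 0.86, Nfil3 by 0.81 and Ghrl by 0.76, while Bbc3 fell by 0.82.

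**Figure D4:**
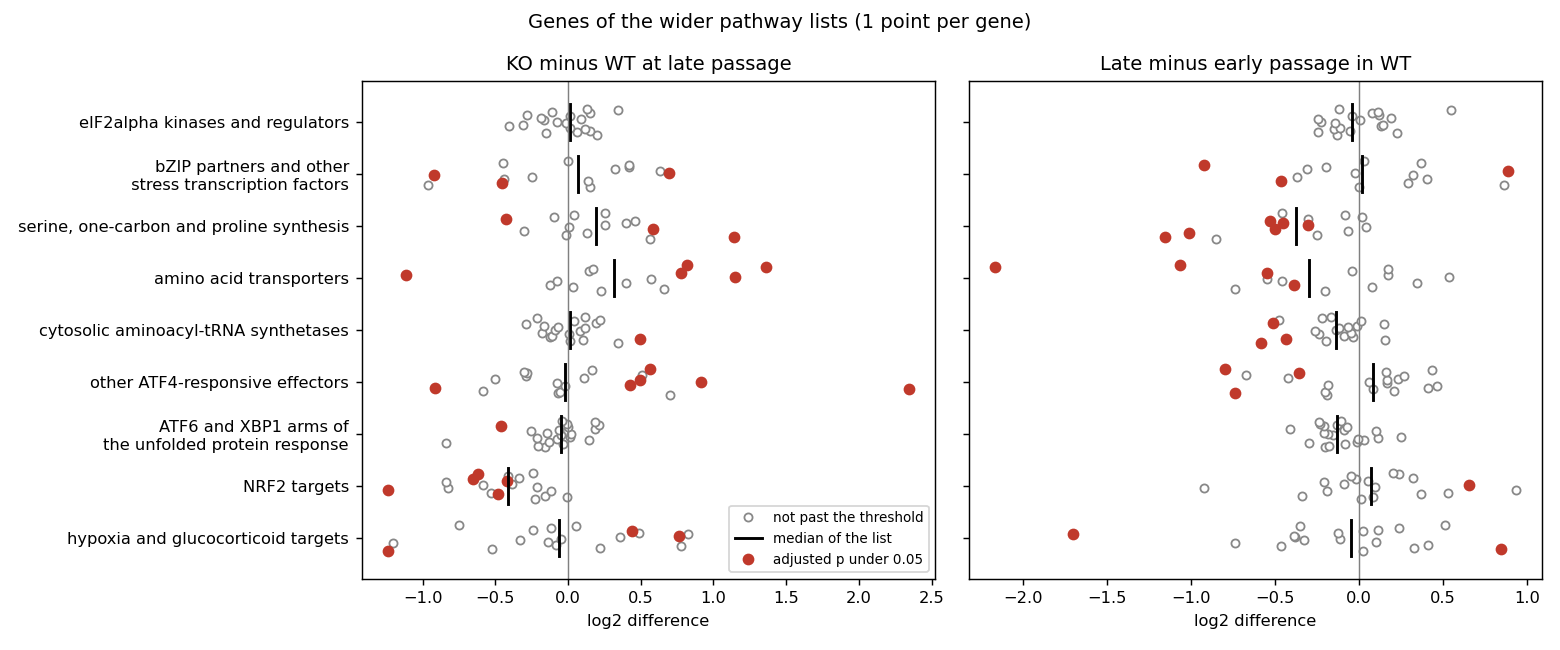
Log2 differences of the genes of 9 lists around the pathway, for KO minus WT at late passage (left) and late minus early passage in WT (right); each point is a gene, filled where the adjusted p was under 0.05, and the black bar is the list's median. Amino acid transporters have medians of 0.31 and -0.30, and the ATF6 and XBP1 arms of -0.05 and -0.13.

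Neighbouring stress pathways were read the same way. Of all genes tested, 3.46% were called higher and 4.37% lower in KO late than in WT late. In WT passage 6.22% and 4.37% were, and in KO passage 9.95% and 9%. In the ATF6 and XBP1 arms of the unfolded protein response, which raise chaperones and secretory factors, 0 of 21 were higher and 1 was lower in KO late than in WT late (Sdf2l1, -0.46 ± 0.118, adjusted p = 0.0406), and 0 were called with WT passage. With KO passage Sdf2l1, Sec61b and Canx fell by 0.53, 0.41 and 0.34. Slc7a11 is also a target of NRF2, and of 18 other targets 5 were lower and 0 higher in KO late than in WT late, with a median of -0.41. Those 5 were Gsta3 (-1.24 ± 0.297), Pgd (-0.66 ± 0.116), Taldo1 (-0.62 ± 0.134), Gclc (-0.48 ± 0.122) and Osgin1 (-0.42 ± 0.111). The part of NRF2 in the level of Slc7a11 was not tested. With KO passage 6 of 18 fell (Gsta4 at -2.05, Nqo1 at -1.71, Srxn1 at -0.56, Taldo1 at -0.49, Gsr at -0.46 and Pgd at -0.41), and with WT passage Hmox1 rose by 0.65.

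Ddit4 responds to hypoxia and glucocorticoids besides ATF4, and of 18 other targets of these 2 signals 2 were higher and 1 lower in KO late than in WT late: Mt2 (0.76 ± 0.172), Per1 (0.44 ± 0.0926) and Adm (-1.24 ± 0.26). Of all genes tested, 3.46% were called higher and 4.37% lower there. With WT passage, where Ddit4 fell, Ndufa4l2 fell by 1.70 and Ankrd37 rose by 0.84. With KO passage, where it fell too, 3 of 18 rose (Egln1 by 0.59, Bnip3 by 0.58 and Per1 by 0.54) and 3 fell (Egln3 by 1.80, Adm by 1.11 and Klf9 by 0.61). The shares of all genes called higher and lower were 6.22% and 4.37% in WT passage and 9.95% and 9% in KO passage. At early passage and for the difference between the passage changes, 0 genes of these 9 lists were called, where 7 and 17 of all genes were.

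Called genes of these lists kept their sign under quantile normalization and normexp. In the 3 comparisons with calls, the medians of 3 lists changed sign. That of the other ATF4-responsive effectors turned to 0.17 with quantile normalization and 0.11 with normexp for KO against WT at late passage, and to -0.09 and -0.12 for WT passage. That of the hypoxia and glucocorticoid targets turned to 0.04 for WT passage and 0.10 for KO passage with quantile normalization, and to 0.0024 at late passage with normexp, where that of the eIF2alpha kinases and regulators turned to -0.0028. With normexp, calls were lost by Gsta3 (-0.31) and Osgin1 at late passage, by Atf6b, Mthfd2, Mthfd1l and Tnfrsf10b in WT passage, and by Ghrl (0.03), Egln1 (0.22), Batf3 (-0.26), Got1, Tnfrsf10b and Pgd in KO passage. With quantile normalization they were lost by Atf6 and Gsta3 at late passage and by Eif2b2, Got1, Tnfrsf10b, Ghrl, Canx, Sec61b, Pgd and Taldo1 in KO passage. With the replicate number as a block, Cebpa, Atf6, Herpud1, Nfil3 and Gclc at late passage and Pck2 in WT passage had adjusted p of 0.0526, 0.0602, 0.0673, 0.0651, 0.0617 and 0.0508. Without KO late replicates 1 and 2, 0 genes of the 9 lists were called between the genotypes at late passage or across KO passages, in fits that called 1 and 165 of all genes. In WT passage that fit left 1 of the 6 lower calls for serine, one-carbon and proline synthesis, 2 of 4 for the transporters and 1 of 3 for the synthetases, with 849 of all genes called.

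**Figure D5:**
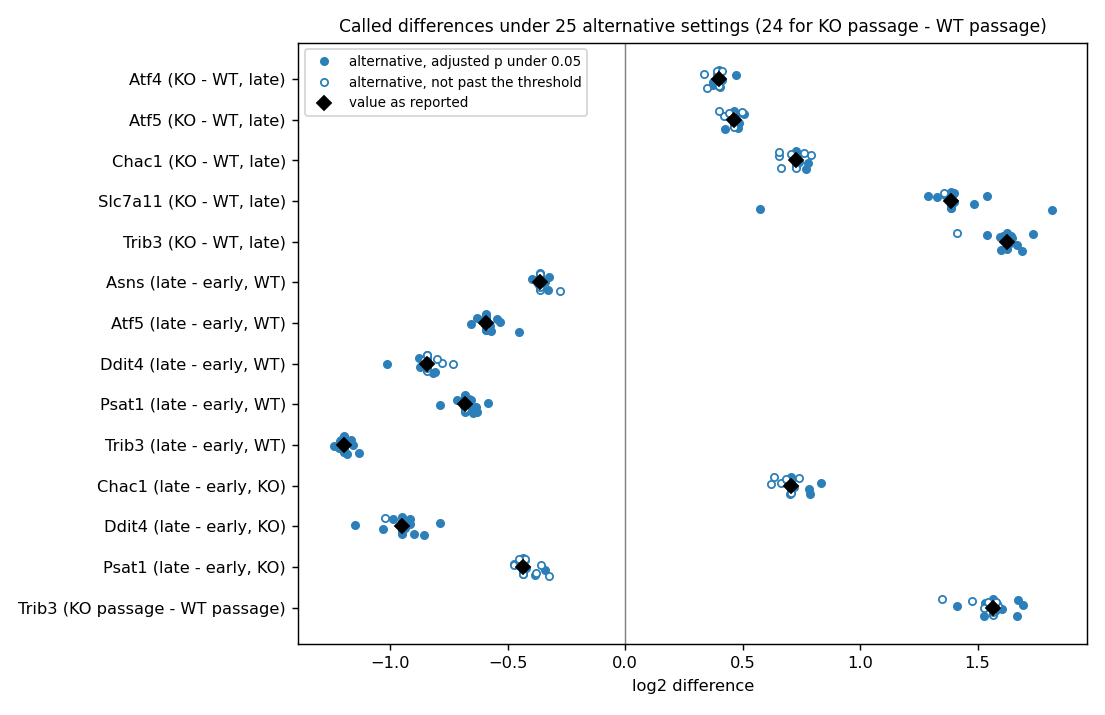
Log2 difference (horizontal axis) of every member call under the reported settings (diamonds) and under the alternative settings (circles, filled where the adjusted p was under 0.05). Each difference keeps its sign under all settings; Slc7a11 at late passage runs from 0.58 to 1.82, and Trib3 in WT passage stays between -1.24 and -1.13 and passes in all of them.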

How the data were processed

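Arrays of 1 colour (Cy3) from 12 MEF samples were used, each started from 100 ng of total RNA per the labels. The deposited scanner files hold spot intensities after background subtraction and removal of trends across the array by Agilent Feature Extraction, version 11.5.1.1 per the file headers and 10.7.3.1 per the submitters' processing notes. The authors' deposited value table holds log2 values of 22887 probes. From its values it is centred on each probe's mean (94.9% of probe means within 0.0001 of 0, column medians from -0.0428 to 0.0232, 3175 values missing). Its columns correlated at 0.923 to 0.975 with the centred scanner values, so its direction is that of the signal. How its probes were filtered is not stated in the labels or headers. It served as an alternative.

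Spots called outliers (100 to 212 per array) and control spots were left out, spots of a probe were averaged, and log2 intensities were set relative to the array's 75th percentile (568.9 to 902.5). No probe was saturated. A probe was kept if some group had it well above background on each of its 3 arrays (24359 probes), after leaving out 171 probes whose spots were all outliers on some array. The brightest kept probe stood for a gene. Probe accessions were named through a RefSeq table on GRCm38.p6 (27969 of 28290 matched), which also gave the promoters. The arrays are annotated on an older build, so no gene coordinates are given.

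A model of 4 group means was fitted to all 12 arrays with limma 3.58.1 in R 4.3.3 (8 residual and 2.22 prior degrees of freedom), with 5 two-sided contrasts and Benjamini-Hochberg adjustment over 19507 genes at 0.05. The script was tested on simulated data. With 3 arrays a group the number of arrays limits the precision, and all p-values rest on a spread pooled over groups whose median SD was 0.214 (WT early), 0.141 (KO early), 0.16 (WT late) and 0.0839 (KO late). Where 1 KO late array was left, its spread was taken to equal that of the other groups. Samples with the same replicate number share a slide. Their deviations from the group means correlated at 0.279, 0.244 and 0.141 across WT passages. They correlated at -0.0915 to 0.156 in the other pairs of groups. Across WT passages a shared culture and a shared slide cannot be told apart.

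The members, lists and alternatives were chosen with earlier results of these data known. All members are named in every comparison, and of each other list at most the 6 called genes with the largest differences. Alternatives were quantile normalization, normexp background (offset 50, on median spot signals, where mean signals had been planned), filters on dim probes, the mean of a gene's probes, every probe tested, outlier spots kept, only the groups compared, the replicate number as a block, array weights, a trended robust variance, the value table, and leaving out arrays.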

Additional observations from a re-analysis of the deposited data

Results flagged for a closer look

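Trib3, the pseudokinase that restrains ATF4, was the single member whose passage difference differed between the genotypes by the test of the difference itself (limma, 3 arrays a group). Passage took it down by 1.20 log2 units in WT, while the KO difference was 0.37, and the KO difference minus the WT difference was 1.56 ± 0.204 (adjusted p = 0.0212). It was positive on 3 of 3 slides. With the replicate number as a block the adjusted p was 0.0786. Over 24 alternative settings its value ran from 1.35 (without KO late replicates 1 and 2 together) to 1.70, and 15 of them kept the call. The adjusted p ran from 0.0129 to 0.0995 when single arrays were left out. In the others it ran from 0.00572 to 0.0786, leaving aside the fit with 1 KO late array.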

How the results depend on the processing

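At early passage 0 members were called under every alternative run. Without a filter on dim probes, where more genes are tested, the members called were 2 for KO against WT at late passage, 3 for WT passage, 1 for KO passage and 0 for the difference between the passage changes, against 5, 5, 3 and 1, with 615, 1003, 2320 and 3 of 31978 genes called. Array weights, which gave KO late replicate 1 a weight of 16.95 and KO early replicate 2 one of 6.544, gave 8, 8 and 4 calls for KO against WT at late passage, KO passage and the difference between the passage changes, where it called 4699, 12772 and 390 of all 19507 genes. Leaving out KO late replicates 1 and 2 together gave 0, 3, 0 and 0, with 1, 849, 165 and 0 of all genes called, against 1528, 2065, 3696 and 17. WT passage fitted on the 2 groups alone, with fewer samples, gave 1, with 560 of all genes called. The replicate block gave 0 for the difference between the passage changes, made Slc7a11 a call in WT passage and changed no other call of a member. Single arrays left out gave 2 to 6, 4 to 7, 1 to 5 and 0 to 2 calls. In KO against WT at late passage these were 2 without any KO late array and 3 without any WT late array, with 255 to 507 and 607 to 1153 of all genes called. In KO passage 1 call was left without KO early replicate 1 or 2 or any KO late array (1780 to 2210 of all genes called), and 5 without KO early replicate 3 (3884).

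Of the 14 member calls, none changed sign, and 1116 single-gene values kept both sign and side of the threshold, 65 fell below it, 28 passed it and 31 changed sign. For the last, the cause was not tested. At early passage Psat1 turned to -0.03133 with quantile normalization, -0.01866 with the mean of probes and -0.01328 with array weights, Atf4 to -0.03248 with the mean of probes and Ddit4 to 0.01762 with array weights. In WT passage Atf4 turned to 0.06416 with quantile normalization and Phgdh to 0.0104 with array weights. In KO passage quantile normalization turned Atf5 to 0.06357 and Phgdh to 0.03827, and Ddit3 was at -0.03228 without KO late replicates 1 and 2. For the difference between the passage changes Phgdh was at -0.1591 with array weights and -0.07684 without those 2 arrays. With single arrays left out, the members that changed sign ran at early passage from -0.1034 to 0.103 (Psat1), -0.2149 to 0.1575 (Ddit4), -0.08078 to 0.04641 (Atf5), -0.2378 to 0.03 (Ddit3), -0.2307 to 0.02407 (Phgdh) and -0.06841 to 0.2157 (Trib3). Phgdh ran from -0.2133 to 0.04148 in WT passage and from -0.1118 to 0.143 for the difference between the passage changes, where Ddit4 ran from -0.307 to 0.06533. Signal over background limits Slc7a11, whose probe lay as little as 0.15 log2 units above the lowest detected signal.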

Other observations

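The genes outside the 10 whose pattern over the 12 arrays was most like that of Trib3 (smallest root mean square difference after each gene was centred on its mean) were Igsf10 (0.215 log2 units), Megf6 (0.216) and Fxyd6 (0.226). The mean of Igsf10 was 2.12 (WT early), 2.35 (KO early), 1.37 (WT late) and 2.66 (KO late). Megf6 was at 0.68, 0.78, -0.64 and 1.01 in the same order, and Fxyd6, a regulator of the sodium pump, at 0.67, 1.07, -0.71 and 1.23. For these 3 genes, as for Trib3, the WT late mean was the lowest and the KO late mean the highest of the 4. Among the members Slc7a11 was nearest to Trib3 (0.268), then Ddit3 (0.407) and Atf5 (0.429), and Ddit4 was farthest (0.683). The likeness is a description over arrays that share slides and groups.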
